A study of Homo sapiens with 30 samples.

Results

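Nascent transcription after re-expression of SNF5 was compared with that of an EGFP control in G401 cells, a malignant rhabdoid tumor (MRT) line that has lost SMARCB1, the gene encoding SNF5. The comparison uses 6 of the 30 samples of the series, 3 PRO-Seq samples with SNF5 and 3 with EGFP, paired by replicate number. Both constructs were lentiviral and tetracycline-inducible, both lines were selected with G418, and both received 1 µg/ml doxycycline for 24 h, so the drug is common to the controls. Another 3 PRO-Seq samples expressed OMOMYC, a dominant-negative form of MYC, and are given beside SNF5 for orientation. The transduced cells were selected populations of a single line at passages given only as a range. The study describes the PRO-Seq replicates as independent experiments. Nothing says whether they came from separate transductions, and p-values measure the spread between these samples.

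PRO-Seq is a nuclear run-on assay that maps RNA polymerase engaged in transcription, strand by strand. Polymerase II commonly halts shortly after initiation, in the promoter-proximal region, and is released into the gene body by elongation factors. Reads on the gene body therefore follow productive transcription, reads in the promoter-proximal window follow paused or newly initiated polymerase, and the ratio of both is the pausing index. SNF5 is a core subunit of the SWI/SNF chromatin remodeler, which moves nucleosomes and keeps enhancers accessible, and its loss is the defining lesion of MRT. MYC is a transcription factor that drives genes of ribosome production, metabolism and growth.

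The table listed 20582 transcripts of 20367 genes, and the transcript with the most reads was taken for each gene. Of these genes, 15060 had enough reads to be tested in the gene body, 11241 in the promoter-proximal window and 11171 in both. Gene body totals ran from 30120153 to 46859674 reads per sample and promoter-proximal totals from 517824 to 3381190. Samples of the same number shared their promoter share and much of their gene-by-gene deviation, and the promoter-proximal windows held 1.46% to 1.60% of reads in number 1, 8.63% to 8.84% in number 2 and 4.22% to 5.13% in number 3. Of 26 markers of mesenchymal, epithelial, blood, endothelial, muscle and neural cells, 13 could be tested, of which 6 rose (CDH2, CDH1, ESRP1, CDH5, VWF and RBFOX3) and 1, SYP, fell. The 4 mesenchymal markers summed to 8235 to 12815 gene body reads with EGFP and 10885 to 16400 with SNF5. Most of these came from VIM, which had between 8160 and 16148 in all 6 samples, while CDH2 had 3, 8 and 17 with EGFP. PECAM1, CLDN4, MYOD1 and OLIG2 had 0, although other markers of their cell types had reads. The 4 endothelial markers summed to 215 to 337 gene body reads with EGFP and 532 to 1104 with SNF5, most of them from VWF, and the 5 epithelial markers to 130 to 1093 and 408 to 1262. Their part in the results was not tested. SMARCB1 was the check of the labels. Its gene body had 4, 1 and 6 reads in the EGFP samples and 2870, 4467 and 3440 in the SNF5 samples, and its promoter-proximal window had 0, 0 and 0 against 429, 1757 and 602, at least 850-fold higher against a floor of 3 reads over the EGFP samples. Reads of the introduced and the endogenous gene cannot be told apart.

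Transcription changed widely with SNF5, and the changes upward were much larger than those downward. In the gene body, 2646 genes rose (17.6% of those tested) and 2485 fell (16.5%), at an adjusted p under 0.05 in edgeR's quasi-likelihood test with Benjamini-Hochberg adjustment. Of the genes that rose, 1199 changed at least 2-fold, 475 at least 4-fold and 52 at least 16-fold. Of the genes that fell, 38 changed at least 2-fold and 0 at least 4-fold. An unadjusted p under 0.05 also gave 0 genes at least 4-fold lower, and DESeq2 gave 1, against 492 that DESeq2 placed at least 4-fold higher. The median log2 fold change was 0.86 among genes that rose and −0.34 among genes that fell, beside −0.03 over all genes tested. Risen genes were higher in all 3 pairs in 2587 of 2646 cases and fallen genes lower in all 3 pairs in 2472 of 2485. The calls were made from these same pairs, so this agreement is not separate support for them. The number of calls depended on the samples: without number 1, 1222 genes rose and 388 fell, without number 2, 1110 and 375, and without number 3, 3969 and 4462. With the pairing by replicate number left out of the test, 218 genes rose and 7 fell.

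**Figure D1:**
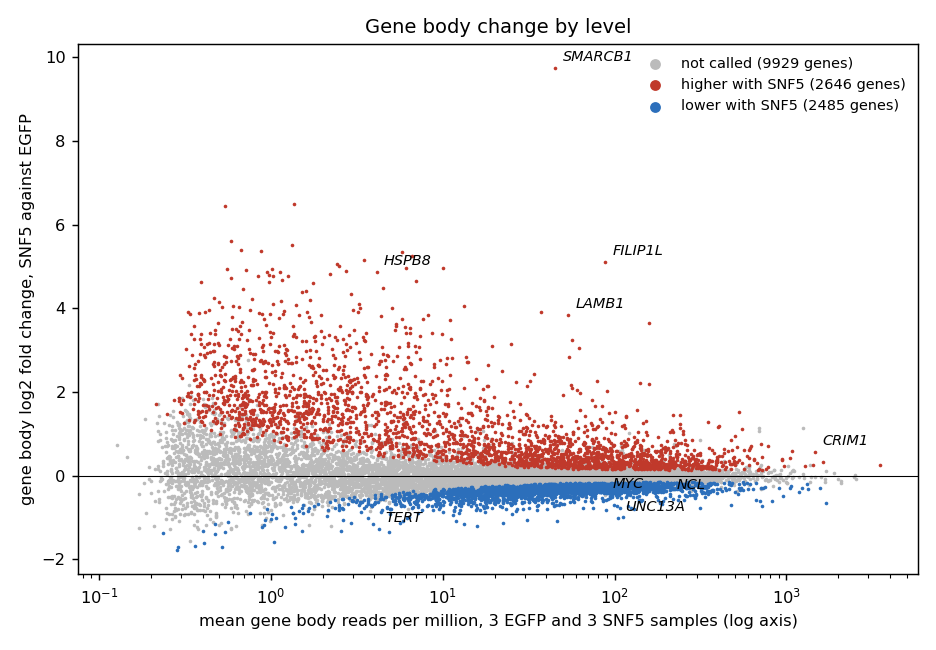
Each point is 1 of the 15060 genes tested, placed by its mean gene body CPM over the 6 samples (x, log axis) and its log2 fold change, SNF5 against EGFP (y); red genes rose, blue genes fell and gray genes were not called. The red points far above 0 lie mostly at low levels, while 1447 of the 2646 rose by less than 2-fold. The 2485 blue points form a thin band below 0, with no called gene under −2.

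Genes with large rises were little transcribed in the EGFP samples. The 1199 genes that rose at least 2-fold had a median of 0.73 CPM in the gene body with EGFP (counts scaled to the library total), whereas genes that rose by less had a median of 50.1 and all genes tested 26.9. Risen genes were also long, with a median gene body of 78611 bp, beside 18418 bp for genes that fell and 29464 bp for all tested. Per kb of gene body, the median level with EGFP was 0.17 RPKM in genes that rose and 2.79 in genes that fell. Large rises thus lay in quiet, long genes, while falls were mostly small and lay in well transcribed, short genes. The 38 genes that fell at least 2-fold were quiet too, with a median of 1.88 CPM with EGFP. Genes near 0 with EGFP could be tested only if the other samples gave them reads, and the EGFP level is also the base of the fold change. The link between a low EGFP level and a large rise is thus partly built in. Longer gene bodies collect more reads at the same density, and their part in the number of calls was not tested.

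The largest rises among well-covered coding genes included receptors, adapters and proteases of many tissues. FILIP1L, on chr3:99566772-99595046 of hg19, encodes filamin A-interacting protein 1-like, a protein linked to cell migration. It overlaps the microRNA gene MIR548G on the same strand, and reads of the shared stretch cannot be told apart. FILIP1L had 278, 223 and 54 gene body reads with EGFP and 8521, 8513 and 2964 with SNF5, without overlap, and rose 34.4-fold (log2 fold change 5.10 ± 0.22, SE, n = 3 per group, adjusted p = 4.86e-06). With OMOMYC its reads were 284, 257 and 48, close to EGFP in each number. IL18, encoding a cytokine of the interleukin-1 family, had 6, 6 and 12 reads with EGFP and 604, 609 and 103 with SNF5 (log2 fold change 5.35 ± 0.50, adjusted p = 0.000154). All SNF5 samples lay above all EGFP samples, and number 3 gave the smallest rise of this gene. ADAM19, a membrane-anchored metalloprotease, rose from 14, 15 and 13 reads to 540, 451 and 441, nearly the same factor in each pair. GUCY2C, the intestinal guanylate cyclase receptor, rose from 3, 10 and 8 reads to 149, 261 and 434. LNX1, a ubiquitin ligase of the Notch regulator Numb, rose from 9, 30 and 21 to 224, 1428 and 612. The groups did not overlap for any of these genes. They were chosen as the largest rises with the same direction in all pairs, so the lack of overlap is not separate support. SH3TC2 and OLAH followed with log2 fold changes of 5.05 and 5.02, from 2, 6 and 7 and from 4, 5 and 6 reads with EGFP. ACSM5 rose from 2, 1 and 1 reads to 15, 104 and 43 (adjusted p = 0.00105). TLR4, the receptor for bacterial lipopolysaccharide, had 0, 2 and 1 reads with EGFP and 96, 109 and 124 with SNF5 (adjusted p = 0.000116). SYTL5 (1, 1 and 1 reads against 46, 66 and 44) and C1orf150 (2, 1 and 0 against 16, 156 and 18) were as near to 0 with EGFP, so that no fold change is given for these 3 genes or for ACSM5.

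The largest falls among well-covered coding genes were between 2-fold and 3-fold and included neural and developmental genes and the telomerase gene. TERT, encoding the catalytic subunit of telomerase, had 317, 176 and 126 gene body reads with EGFP and 168, 105 and 31 with SNF5 (log2 fold change −1.28 ± 0.24, adjusted p = 0.0044). It was lower in every pair, although the groups overlap when pairs are ignored. UNC13A, a protein that primes synaptic vesicles, had 3708, 2742 and 10744 reads with EGFP and 2381, 1956 and 3861 with SNF5, and fell in both regions (gene body log2 fold change −1.01 ± 0.13, adjusted p = 0.000841). SHISA3, which retains Wnt and FGF receptors in the endoplasmic reticulum, also fell in both, from 798, 796 and 253 gene body reads to 380, 467 and 110. EPHA7, an ephrin receptor, had 108, 98 and 3783 reads with EGFP and 45, 47 and 2036 with SNF5. Number 3 was far above the others in both constructs, and the fall was seen within each number. SYP, which encodes the synaptic vesicle protein synaptophysin, fell with a log2 fold change of −1.33 and RIN1, an effector of RAS, with −1.09. ODF3L2, GPR83, CCDC85B, SLC22A31, LHX1 and TMEM145 also fell, with log2 fold changes between −1.58 and −1.12. The fall of LHX1 was small in number 3, from 7.21 to 6.74 CPM, beside 3.33 to 0.69 in number 1.

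A stricter class comprised genes switched on, with under 1 CPM on the gene body in all 3 EGFP samples, at least 1 in all 3 SNF5 samples and a called rise of at least 4-fold. There were 106 such genes, SMARCB1 included, 95 of them coding, and 0 genes met the reverse. Without number 1, 2 or 3 there were 157, 130 and 203, with fewer samples that had to meet the limits. The off class was empty also because no called gene fell 4-fold; with a 2-fold change required, 129 genes were switched on and 2 off. In 66 of the 106 genes all 3 OMOMYC samples were also under 1 CPM, and in 1 gene all 3 were at or above it. The 10 most densely transcribed of them were SMARCB1, C10orf10, CRNN, CASQ1, IL32, IL18, S100A11, HSPB8, LINC00113 and C1orf226. HSPB8, a small heat shock protein of muscle, rose from 9, 19 and 4 gene body reads to 266, 307 and 397. CRNN, which encodes cornulin of squamous epithelium, rose from 4, 8 and 3 to 82, 155 and 108, and CASQ1, the calcium buffer of skeletal muscle, from 12, 29 and 16 to 165, 478 and 110. IL32, a proinflammatory cytokine, rose from 22, 7 and 8 to 108, 71 and 72, but had 77, 44 and 7 reads with OMOMYC. These examples are known from muscle, squamous epithelium and immune cells. DUSP10, a phosphatase of stress-activated kinases, rose from 8, 14 and 20 reads to 185, 316 and 245. TGFBR2, the type 2 receptor of TGF-beta, rose from 4, 2 and 7 to 61, 125 and 70. Few of these genes had enough promoter-proximal reads to test: 11 did, and 9 of the 11 rose there, beside 2.64% of all genes tested in that window. Genes this quiet with EGFP could reach the read minimum through their SNF5 reads, as HSPB8 did with 1, 1 and 0 against 13, 129 and 85. The share of rises is therefore not separate support.

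The promoters of 5 genes, chosen after their values were seen, are shown because they differ in the features examined below. HSPB8 and TGFBR2 were switched on and have a start at which an accessible site was gained, ANKRD1 and CPA4 rose and carry motifs for TEAD and AP-1 factors, and RRP9 fell and has a MYC peak at its start. Each sequence is the RefSeq window of 250 bases before to 50 bases after the start in GRCh38.p14, on the strand of the gene, with TGACTCA or TGAGTCA (AP-1), CACGTG (the E-box of MYC) and GGAATG or CATTCC (TEAD) in capitals. HSPB8 lies at chr12:119178681-119178980 (plus strand), TGFBR2 at chr3:30606106-30606405 (plus), ANKRD1 at chr10:90921038-90921337 (minus), CPA4 at chr7:130292911-130293210 (plus) and RRP9 at chr3:51941855-51942154 (minus).
HSPB8: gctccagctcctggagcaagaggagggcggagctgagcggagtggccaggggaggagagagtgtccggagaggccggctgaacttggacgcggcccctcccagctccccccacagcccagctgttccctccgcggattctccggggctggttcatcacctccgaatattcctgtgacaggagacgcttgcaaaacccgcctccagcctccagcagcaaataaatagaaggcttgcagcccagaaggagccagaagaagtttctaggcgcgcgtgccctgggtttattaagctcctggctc
TGFBR2: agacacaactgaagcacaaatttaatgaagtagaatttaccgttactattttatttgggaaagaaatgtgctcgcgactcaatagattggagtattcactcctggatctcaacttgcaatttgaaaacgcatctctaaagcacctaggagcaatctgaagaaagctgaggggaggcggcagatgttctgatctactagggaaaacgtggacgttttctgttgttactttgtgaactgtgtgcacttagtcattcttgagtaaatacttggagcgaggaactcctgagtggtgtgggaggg
ANKRD1: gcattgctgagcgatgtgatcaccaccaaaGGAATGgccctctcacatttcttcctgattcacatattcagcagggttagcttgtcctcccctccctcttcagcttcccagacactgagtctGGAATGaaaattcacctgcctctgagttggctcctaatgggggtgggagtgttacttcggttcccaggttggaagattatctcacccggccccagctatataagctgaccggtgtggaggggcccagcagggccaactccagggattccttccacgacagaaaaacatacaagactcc
CPA4: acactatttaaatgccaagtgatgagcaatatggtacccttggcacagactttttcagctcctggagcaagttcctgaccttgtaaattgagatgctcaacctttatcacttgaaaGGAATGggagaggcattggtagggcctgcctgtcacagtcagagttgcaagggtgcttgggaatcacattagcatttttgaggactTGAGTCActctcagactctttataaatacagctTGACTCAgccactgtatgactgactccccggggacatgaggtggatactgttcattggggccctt
RRP9: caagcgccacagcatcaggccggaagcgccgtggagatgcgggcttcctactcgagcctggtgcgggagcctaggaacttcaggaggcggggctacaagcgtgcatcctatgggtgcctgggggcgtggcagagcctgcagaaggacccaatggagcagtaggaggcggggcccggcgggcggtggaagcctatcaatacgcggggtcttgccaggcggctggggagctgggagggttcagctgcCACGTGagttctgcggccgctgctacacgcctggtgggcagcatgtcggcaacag
HSPB8 and TGFBR2 hold none of these letters in the window. ANKRD1 holds GGAATG at −220 and −128 relative to the start, CPA4 holds TGAGTCA at −48, TGACTCA at −15 and GGAATG at −134, and RRP9 holds CACGTG at −5. CPA4, a carboxypeptidase, had 38, 21 and 4 gene body reads with EGFP and 666, 520 and 412 with SNF5 (log2 fold change 4.66 ± 0.46, adjusted p = 0.000222).

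Motifs in promoters differed modestly between the classes of genes. Over all 27305 RefSeq promoters of this length, searched on both strands, 4.92% held the AP-1 letters, 7.43% the E-box and 14.05% the TEAD letters. Among the tested genes with such a promoter, 11790 of 15060, the shares were 3.20%, 9.77% and 11.1%. Genes that rose at least 2-fold held the AP-1 letters in 5.44% and the E-box in 5.33% of cases, while genes that fell held them in 2.45% and 14.2%. The TEAD letters were found in 15.7% of genes that rose at least 2-fold and 9.40% of genes that fell. Promoters of genes that rose at least 2-fold also had fewer CG dinucleotides, with a median of 16 in the window beside 25 for all tested and 28 for genes that fell. These shares are descriptions of letters in a window, not of binding.

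Gene lists drawn up by function were then read against the background of 17.6% risen and 16.5% fallen genes. The lists of matrix, adhesion, contractile, guidance and growth factor genes lay above it upward, and those of ribosome production, translation and DNA replication downward.

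**Figure D2:**
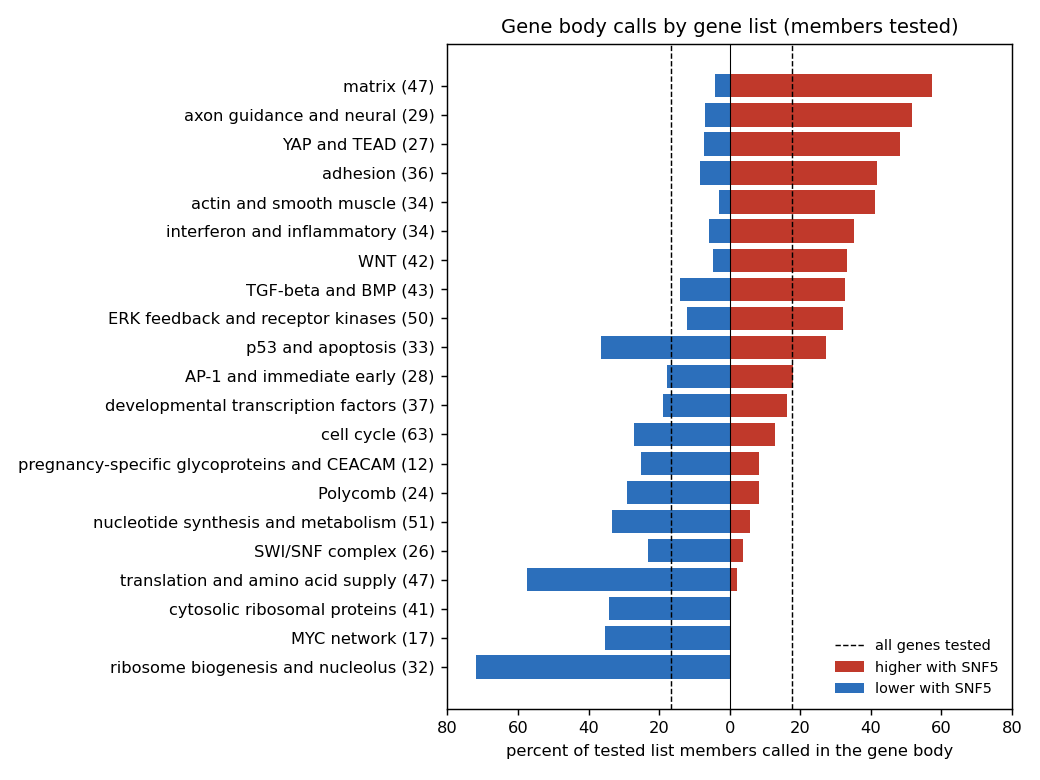
Bars give the percent of tested members of each gene list that rose (red, to the right) or fell (blue, to the left) in the gene body with SNF5, with the number of members tested in parentheses; dashed lines mark 17.6% and 16.5%, the shares over all 15060 genes. Matrix genes have the longest red bar, 27 of 47, and ribosome biogenesis the longest blue bar, 23 of 32, with no red.

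Genes of the extracellular matrix rose together: 27 of 47 tested members rose and 2 fell, 18 of them rose at least 2-fold, and the median log2 fold change of the list was 0.40. Of the collagens, 10 of 14 rose and 0 fell, and of the laminins and glycoproteins, 10 of 16 rose and 0 fell. LAMB1, a laminin beta chain of basement membranes, had 221, 228 and 318 gene body reads with EGFP, 243, 278 and 286 with OMOMYC and 4627, 3984 and 3479 with SNF5 (log2 fold change 3.84 ± 0.13, adjusted p = 1.01e-06). Its SNF5 samples agreed closely and lay far above the other 6. LAMB3, of the epithelial laminin-332, rose from 7, 14 and 25 reads to 210, 236 and 291. FBN1, the main fibrillin of elastic microfibrils, rose from 3195, 2655 and 8648 reads to 11694, 10052 and 17706, and COL5A2, a chain of type V collagen, from 1588, 1550 and 1622 to 4063, 4334 and 2950. The 2 members that fell were PLAU, the urokinase protease, and TIMP1, an inhibitor of metalloproteases, which were picked out after their values were seen.

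Adhesion genes followed the matrix, with 15 of 36 tested members risen and 3 fallen. ITGB3, the beta 3 integrin of vitronectin receptors, rose from 39, 36 and 36 gene body reads to 488, 505 and 424 (log2 fold change 3.53 ± 0.30, adjusted p = 9.29e-05). ALCAM, an immunoglobulin-family adhesion protein, rose from 8, 19 and 27 to 95, 234 and 150, and ITGA11, a collagen-binding integrin, from 35, 48 and 105 to 188, 315 and 945. ITGA9 went the other way, from 3494, 2704 and 2656 reads to 2237, 1929 and 1623. Integrin chains were thus among both the risen and the fallen genes, 7 and 2 of 17.

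Contractile and actin genes rose in 14 of 34 tested cases and fell in 1, PXN, which encodes the focal adhesion protein paxillin. MYLK, the kinase that activates smooth muscle myosin, had 56, 92 and 73 gene body reads with EGFP and 582, 1118 and 688 with SNF5 (log2 fold change 3.27 ± 0.15, adjusted p = 7.65e-06). CALD1, the actin-binding protein caldesmon, rose from 127, 116 and 168 to 650, 623 and 451, and in the promoter-proximal window from 0, 6 and 2 to 10, 41 and 24. LIMA1, an actin bundling protein, rose from 1239, 1322 and 1432 to 4440, 5107 and 4512, while MYH9, nonmuscle myosin, changed by only 0.54 on the log2 scale from a high level. Targets of YAP and TEAD, which respond to tension and cell shape, rose in 8 of 13 cases and fell in 0, with a median log2 fold change of 0.65. ANKRD1 among them had 160, 135 and 39 gene body reads with EGFP and 1423, 1274 and 143 with SNF5 (log2 fold change 2.72 ± 0.19, adjusted p = 3.89e-05). CTGF, a matricellular growth factor transcribed at high levels, rose from 2346, 2870 and 4392 reads to 4347, 5253 and 7875. CRIM1 rose from 48151, 39651 and 40757 to 80081, 68436 and 62632.

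**Figure D3:**
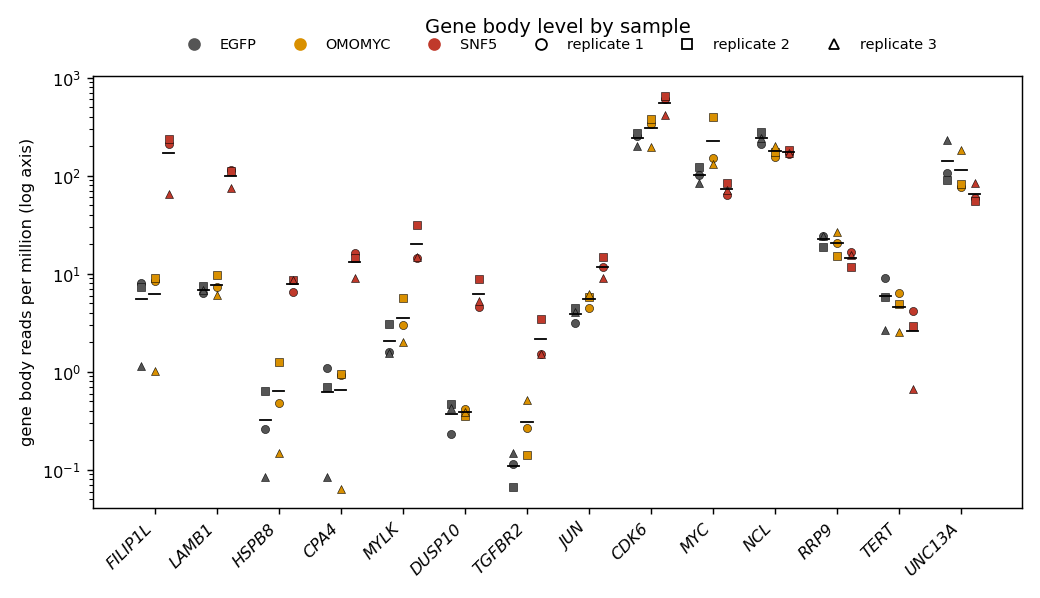
Gene body CPM (y, log axis) of 14 genes in each EGFP (gray), OMOMYC (orange) and SNF5 (red) sample; the shape of a point gives the replicate number and the black line the mean of 3 samples. FILIP1L, LAMB1, HSPB8 and MYLK have all red points above all gray ones, whereas the red points of NCL and RRP9 lie only slightly below the gray ones.

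Among receptors and ligands the shares differed by role. In the list of growth factor receptors, ligands and ERK feedback genes, 16 of 50 rose and 6 fell. Of the ligands alone 7 of 13 rose and 0 fell, whereas of the receptors 5 of 22 rose and 3 fell, close to the background. FGF1, a fibroblast growth factor, rose from 99, 167 and 123 gene body reads to 559, 734 and 942. MET, the receptor of hepatocyte growth factor, had 1097, 1159 and 10 reads with EGFP, 2287, 2306 and 17 with OMOMYC and 3308, 3670 and 39 with SNF5 (log2 fold change 1.43 ± 0.11, adjusted p = 6.12e-05). In number 3 it was scarcely transcribed in any construct, yet the rise was present there too. AXL, a receptor tyrosine kinase of the TAM family, rose from 3157, 1732 and 2558 to 7592, 3960 and 4895. In the TGF-beta and BMP list, 14 of 43 rose and 6 fell. Of its receptors and SMADs 7 of 14 rose and 0 fell, TGFBR2 by the most, and of its ligands 2 of 12 rose and 1 fell, with a median log2 fold change of −0.19. SMAD2, a transducer of TGF-beta signals, rose by 0.42 ± 0.04 on the log2 scale, and SMAD7, the inhibitory SMAD, by 0.45 ± 0.07. BMP6, a bone morphogenetic protein, fell from 3746, 3091 and 3452 reads to 2470, 2204 and 2018. In the WNT list, 14 of 42 rose and 2 fell, and 8 of 15 receptors rose. LGR4, a receptor of R-spondins that strengthens WNT signals, rose from 268, 254 and 1503 gene body reads to 3656, 3020 and 4741 (log2 fold change 2.83 ± 0.31, adjusted p = 0.00032). ROR1 rose from 21, 22 and 27 to 69, 266 and 166, FZD7 by 0.76 and the feedback target AXIN2 by 0.55 on the log2 scale.

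Axon guidance and neural genes rose in 15 of 29 tested cases and fell in 2. SEMA6A, a transmembrane semaphorin, had 37, 37 and 36 gene body reads with EGFP and 539, 742 and 412 with SNF5 (log2 fold change 3.76 ± 0.17, adjusted p = 7.39e-06). PAX6, a transcription factor of eye and brain, rose from 12, 22 and 64 to 245, 371 and 615. The guidance receptor PLXNA2 and the ligand SEMA3E rose in both regions. Developmental transcription factors as a list did not stand apart from the background, with 6 risen and 7 fallen of 37. The kidney factors went in both directions. PAX8 rose, whereas PAX2, which is expressed in nephron progenitors, fell from 877, 732 and 7823 reads to 746, 648 and 4107, and LHX1 from 116, 126 and 338 to 28, 49 and 310. RUNX1 rose by 0.46 and PLAG1 by 1.02 on the log2 scale.

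Among interferon and inflammatory genes, 12 of 34 rose and 2 fell. Of 20 cytokines and chemokines listed, 8 had enough reads to test, of which 5 rose and 1 fell. The risen ones were IL18, IL32, IL1A, IL33 and IL6, the last 3 named after their values were seen. Members quiet with EGFP, such as IL18, could reach the read minimum through their SNF5 reads, which favors rises among those tested. NFKBIZ, an inducible regulator of NF-kB targets, rose from 347, 317 and 480 gene body reads to 1163, 855 and 1148, and OAS3, an antiviral sensor, from 78, 51 and 122 to 278, 223 and 250. OAS3 reads with OMOMYC, at 203, 165 and 175, lay between the others. In the AP-1 and immediate early list, 5 of 28 rose and 5 fell, close to the background. JUN, a subunit of AP-1, rose in both regions, from 110, 135 and 190 gene body reads to 477, 525 and 414, and NR4A3, an orphan nuclear receptor, from 34, 39 and 58 to 193, 184 and 197. JUNB and JUND, also AP-1 subunits, fell by 0.46 and 0.38 on the log2 scale. AP-1 subunits therefore did not move as a group.

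Ribosome biogenesis was the list with the most uniform fall: 23 of 32 tested genes fell, 0 rose, and the median log2 fold change was −0.32. RRP9, a component of the U3 snoRNP that processes ribosomal RNA, had 844, 560 and 1146 gene body reads with EGFP and 668, 423 and 714 with SNF5 (log2 fold change −0.62 ± 0.12, adjusted p = 0.00444). POLR1A, the large subunit of RNA polymerase I, went from 9118, 7371 and 14724 to 8543, 6619 and 11682 (log2 fold change −0.34 ± 0.05, adjusted p = 0.0017). Raw reads understate these falls because the SNF5 samples of numbers 1 and 2 were sequenced more deeply. POLR1B and PES1 fell by 0.43 and 0.44 on the log2 scale. POLR1B had 3635, 3134 and 5930 reads with EGFP and 2769, 2262 and 5164 with OMOMYC. In the promoter-proximal window 0 of 31 members of the list were called in either direction in edgeR's test. Over all genes tested there, 2.64% rose and 1.63% fell, so 0 calls do not set this list apart.

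Translation and amino acid supply fell in 27 of 47 cases and rose in 1, VLDLR, a lipoprotein receptor placed in the list as a target of ATF4. Of genes of the ATF4 response to amino acid shortage, 13 of 17 fell. PHGDH, which commits glucose carbon to serine, fell from 3021, 2286 and 3416 gene body reads to 2614, 1912 and 2596, and EIF5A, an elongation factor, from 2045, 2878 and 4095 to 1953, 2343 and 2417. Cytosolic ribosomal protein genes fell in 14 of 41 cases and rose in 0, with a median log2 fold change of −0.18. In nucleotide synthesis and metabolism 17 of 51 fell and 3 rose, of which HMGCS1, of sterol synthesis, and SLC2A3, a glucose transporter, rose by 0.67 and 0.68 on the log2 scale. The MYC network list had 6 of 17 fallen and 0 risen. MYC itself had 3533, 3669 and 3993 gene body reads with EGFP and 2599, 3051 and 3328 with SNF5, a log2 fold change of −0.46 ± 0.22 that did not pass the test (adjusted p = 0.14). Its 5066, 11277 and 6154 reads with OMOMYC cannot be told apart from those of the construct.

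In the cell cycle list 17 of 63 genes fell and 8 rose. Of the DNA replication genes 12 of 22 fell and 0 rose, with a median log2 fold change of −0.31. Of 20 mitotic genes 0 fell and 3 rose, no larger a share than the background, with a median of −0.01. The difference between these roles was not tested. MCM7, a subunit of the replicative helicase, fell from 3690, 3013 and 4766 gene body reads to 2981, 2328 and 3133, and E2F2, which activates S phase genes, from 1881, 1330 and 1783 to 1174, 882 and 1056. CDK6, the G1 kinase that phosphorylates the retinoblastoma protein, rose from 8902, 8176 and 9470 to 24410, 23235 and 19033 (log2 fold change 1.18 ± 0.08, adjusted p = 4.4e-05), and RB1 by 0.44. Of 7 inhibitors of cyclin-dependent kinases 3 rose, CDKN2A, CDKN2B and CDKN2C, which were named after their values were seen. CDKN2B, encoding p15, had 32, 24 and 20 reads with EGFP and 115, 124 and 54 with SNF5, and CDKN2A, encoding p16 and p14ARF, had 256, 262 and 415 against 730, 850 and 466. The rise of CDKN2A was thus small in number 3. CDKN1A, encoding p21, had a log2 fold change of 0.00 ± 0.06. Targets of p53 went both ways, with 7 of 22 risen and 8 fallen. RRM2B rose by 0.45 on the log2 scale, and FDXR and PLK3 fell by 0.70 and 0.64.

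Other SWI/SNF subunits changed little. Of 26 tested members of the list 1 rose and 6 fell, and the fallen ones, such as BCL7A and BRD9, changed by at most 0.57 on the log2 scale. The 1 that rose was DPF3, a subunit of muscle and neural complexes, from 17, 17 and 56 gene body reads to 82, 151 and 127. In the Polycomb list JARID2, a cofactor of PRC2, rose from 4665, 3726 and 11564 to 11840, 9224 and 20155, and PCGF5 rose from low levels, while 7 of 24 fell.

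Fewer changes were called in the promoter-proximal window, where 297 genes rose (2.64% of 11241 tested) and 183 fell (1.63%). Without number 1 these were 382 and 587, without number 2 49 and 6, and without number 3 448 and 162, so that number 2, which had the most promoter-proximal reads, carried many of the calls. With the pairing left out, edgeR called 0 genes in either direction and 48 had an unadjusted p under 0.05. Of the 297 risen genes 155 also rose in the gene body, 10 fell there, 124 were tested there and not called and 8 were not tested there. Of the 183 fallen genes 79 also fell in the gene body and 6 rose. Conversely, 1255 of the 2646 genes that rose in the gene body had too few promoter-proximal reads for a test. HSPB8 rose from 1, 1 and 0 promoter-proximal reads to 13, 129 and 85, CPA4 from 0, 7 and 1 to 20, 250 and 63, and FILIP1L from 4, 66 and 49 to 141, 1370 and 343 (log2 fold change 3.72 ± 0.27, adjusted p = 5.21e-12). In these 3 genes both regions rose. C10orf10, a stress-induced gene of the FOXO pathway, was unusual in its balance, since it had more reads in the window than in its short gene body: 15, 156 and 181 promoter-proximal reads with EGFP and 145, 1619 and 1064 with SNF5. IFRD1, singled out after its values were seen, rose from 0, 2 and 1 promoter-proximal reads to 8, 103 and 24, while its gene body rose by 0.30 ± 0.05 on the log2 scale. In MAP1LC3C, of the autophagy protein family, the gene body had too few reads to be tested, and its window rose from 1, 10 and 3 reads to 7, 148 and 47.

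Falls in the promoter-proximal window included several pregnancy-specific glycoproteins, a clustered family on chromosome 19 normally secreted by the placenta. Of 10 tested, 4 fell there and 0 rose, namely PSG1, PSG4, PSG6 and PSG9, and the median log2 fold change was −0.87. PSG9 had 133, 410 and 235 promoter-proximal reads with EGFP and 87, 164 and 86 with SNF5 (log2 fold change −1.29 ± 0.21, adjusted p = 0.000185), and its gene body fell less, by 0.57. PSG6 had 19, 35 and 93 reads against 7, 19 and 31, with a gene body change of −0.24 that did not pass the test (adjusted p = 0.376). These genes are near-identical copies, and reads could be split between them, so single members are uncertain. TCP11L2 (54, 304 and 164 reads against 49, 94 and 57), DRG2, a GTPase (20, 1291 and 240 against 18, 397 and 127), and TUFM, a mitochondrial elongation factor (78, 250 and 276 against 51, 112 and 107), also fell in the window. RPRM, an inhibitor of the G2 phase, fell there by 1.19 on the log2 scale. The fall was small in number 1 for TCP11L2 and DRG2.

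**Figure D4:**
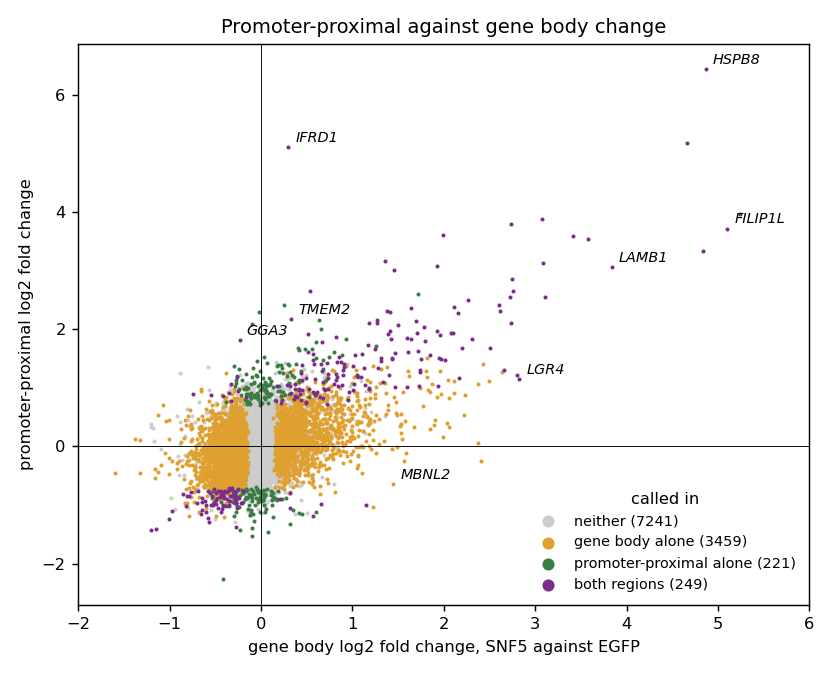
Log2 fold change, SNF5 against EGFP, in the gene body (x) and the promoter-proximal window (y) for the genes tested in both, SMARCB1 left out; colors give the region in which a gene was called. Genes called in both regions lie mostly in the upper right, IFRD1, TMEM2 and GGA3 lie high with little gene body change, and MBNL2 lies right of and below 0.

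The pausing index rose for 226 of 11171 genes (2.02%) and fell for 183 (1.64%). Without number 2 these were 3 and 6, without number 1 272 and 345, and without number 3 279 and 115. TMEM2, a hyaluronidase of the cell surface, had 11, 72 and 13 promoter-proximal reads with EGFP and 87, 331 and 56 with SNF5, and a gene body change of 0.32, so that its pausing index rose by 1.87 ± 0.27 on the log2 scale (adjusted p = 8.69e-06). GGA3, a sorting adapter of the Golgi, had 3, 36 and 17 promoter-proximal reads against 10, 200 and 40, while its gene body fell by 0.24. EOMES, a T-box factor of early mesoderm, reached a higher index the other way: its gene body fell from 282, 394 and 129 reads to 173, 217 and 54, and its promoter-proximal change of 0.71 did not pass the test (adjusted p = 0.135). MICALCL also rose in the window and not in the gene body. Among genes whose index fell, TCP11L2 and DRG2 changed in the window alone. In MBNL2, a splicing regulator, the gene body rose from 5794, 5133 and 3212 reads to 16143, 14882 and 10554, while the promoter-proximal reads went from 10, 299 and 100 to 27, 157 and 53 (pausing index change −2.08 ± 0.28, adjusted p = 1.24e-06). In number 1 its window thus went up and in numbers 2 and 3 down. STON1-GTF2A1L, a read-through locus, and ATP2B4, a calcium pump of the plasma membrane, rose in the gene body and fell in the window, although in number 1 their promoter-proximal reads were 8 and 5 with EGFP and 13 and 5 with SNF5. RASL11B, a RAS-like GTPase, rose from 89, 67 and 96 gene body reads to 227, 258 and 351 with a promoter-proximal change of −0.11. Genes whose index fell had long gene bodies, with a median of 69489 bp, beside 15576 bp where it rose and 26018 bp for all tested.

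Lastly, the called genes were compared with MYC peaks and accessible sites mapped in the same cells. A gene was counted as MYC-bound where a peak present in both EGFP ChIP-Seq samples had its summit within 1 kb of the start, which held for 831 of the 15060 genes tested. Of these, 345 fell (41.5%) and 23 rose (2.77%), with a median log2 fold change of −0.20 in the gene body, beside 16.5% and 17.6% over all genes tested. In the promoter-proximal window their median was −0.08, close to the −0.05 over all genes tested there. The pausing index rose in 28 of 822 (3.41%) and fell in 6 (0.73%), beside 2.02% and 1.64% over all genes tested. RRP9 had a MYC summit 12 bp from its start. Conversely, 13.9% of fallen genes were MYC-bound, 0.87% of risen genes, 0.25% of those risen at least 2-fold and 0 of the 106 switched-on genes. MYC-bound genes are well transcribed as a class, and the part of expression level in these shares was not tested.

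Accessible sites gained with SNF5, seen in all 3 SNF5 and 0 of 3 EGFP ATAC-Seq samples, numbered 3642, and 3 sites were lost. Of tested genes with a gained site within 1 kb of their GRCh38 start, 71 of 303 rose (23.4%) and 50 fell (16.5%). This start is a single one per gene and can differ from that of the counted transcript, from which MYC summits were measured. A gained site lay at the start of 3.40% of risen genes, 4.13% of those risen at least 2-fold, 2.50% of fallen genes and 2.57% of all tested. Most risen genes therefore had no gained site at their start. Within 50 kb, a distance chosen after the data were seen, the shares were 21.5% of risen, 13.6% of fallen and 15.9% of all tested genes. ADAM19, HSPB8, TGFBR2 and ANKRD1 had a summit of a gained site 71, 232, 265 and 239 bp from their starts. With EGFP, a site open in at least 2 samples lay within 1 kb of 54.1% of all tested starts, but of 13.8% of the starts of genes that rose at least 2-fold and 11.8% of those switched on. Both classes were little transcribed with EGFP, the switched-on genes by definition, and no comparison with genes of the same EGFP level was made.

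**Figure D5:**
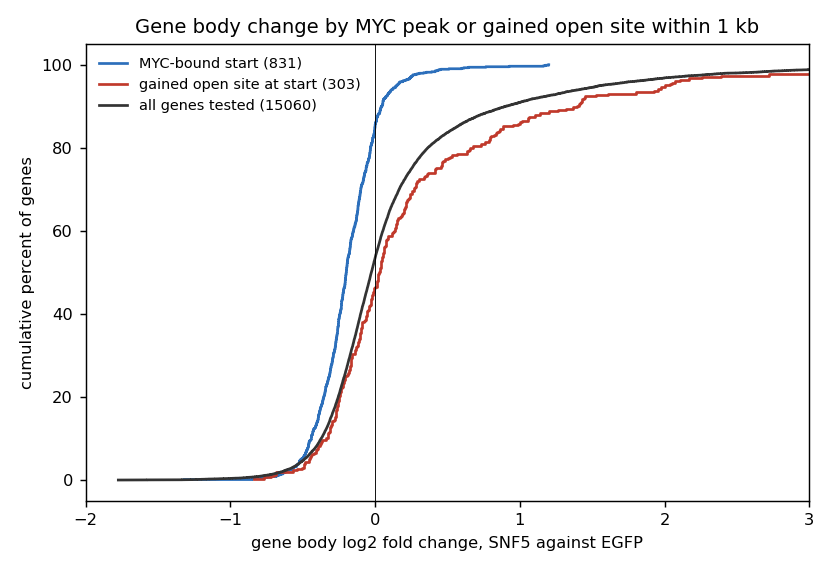
Cumulative percent of tested genes (y) by gene body log2 fold change, SNF5 against EGFP (x, shown from −2 to 3), for genes with a MYC peak (blue, 831) or a gained accessible site (red, 303) within 1 kb of their start, and all genes tested (black, 15060). The blue curve lies left of the black one, with a median of −0.20 beside −0.03, and the red curve lies slightly to the right, with a median of 0.02.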

How the data were processed

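The deposited PRO-Seq table gives raw counts per RefSeq transcript (hg19) and a gene body signal in reads per bp. The authors trimmed reads with cutadapt, aligned them with Bowtie2, removed those on rRNA or with a mapping quality below 10, and counted them with NRSA: the 50 bp window with the most reads near the start, and the gene body from 1 kb onward. Bowtie2 settings for PRO-Seq were not given in the sources used here. The deposited MACS2 peak lists (ChIP-Seq hg19, ATAC-Seq hg38) give a fold ratio and a −log10 q-value, for which only position and summit were used here. OMOMYC peaks were not used.

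Counts were tested with edgeR 4.0.16 in R 4.3.3, with all 9 PRO-Seq samples, construct and replicate number as terms, and a mean of at least 10 counts. Both regions were scaled by gene body totals times RLE factors. The pausing index change is the interaction of region and construct. Deviations of same-numbered SNF5 and EGFP samples correlated at 0.82 to 0.84 in the gene body and 0.69 to 0.88 in the promoter-proximal window, and were therefore paired. Levels are in CPM, counts scaled to the gene body total, also per kb (RPKM), computed here. Printed reads are raw, folds are from the fit, and errors are standard errors. On simulated counts with 200 genes changed 2-fold, 77.5% were recovered in the gene body and 64.5% in the promoter-proximal window, with 7.74% and 3.01% false calls among those made. For the pausing index, 52.3% of 197 changed genes were recovered, with 7.21% false calls.

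Genes named are the 12 largest gene body changes in each direction, 6 promoter-proximal and 4 pausing changes with at least 50 reads in the higher group and the same direction in all pairs, up to 4 genes of each list with the smallest p-value, the 10 densest switched-on genes, and the called genes with the highest EGFP level. The members and lists were chosen with earlier results of these data known. RefSeq GRCh38.p14 starts were found for 15312 of 20367 genes matched by accession or symbol. The start used for motifs and accessible sites is a single one per gene, and it can differ from that of the counted transcript. DESeq2 1.42.0, other scalings, filters, transcripts and subsets of samples were alternatives. Python 3.11.15 was used elsewhere. Some named genes are not reported here.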

Additional observations from a re-analysis of the deposited data

How the results depend on the processing

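Without the replicate block, which ignores the pairing, 218 genes rose and 7 fell in the gene body by edgeR, and 0 in either direction in the promoter-proximal window or the pausing index (48 and 9 at an unadjusted p under 0.05). With the SNF5 and EGFP samples alone, still paired, 1600 genes fell in the gene body, and the pausing index rose for 90 and fell for 87. With 1 number left out, gene body rises ran from 1110 to 3969 and falls from 375 to 4462, promoter-proximal rises from 49 to 448 and falls from 6 to 587, pausing index rises from 3 to 279 and falls from 6 to 345, and switched-on genes from 130 to 203, with 0 switched off each time. Promoter-proximal calls were 498 risen and 292 fallen with no filter, 159 risen with a mean of at least 50 counts, and 497 and 496 with their own totals and factors. With 2-fold in place of 4-fold, 2 genes were switched off. Within 5 kb, 16.1% of fallen genes had a MYC peak and 5.08% of risen genes a gained site; within 50 kb, 21.5% of risen and 13.6% of fallen genes had one. Other counts stayed within 1.5 times those given. Named genes kept their direction under every alternative run. Many were chosen for the same direction in all pairs or for small p-values, so the kept direction is not separate support. Of their 1699 values, 214 no longer passed the test, most of them without the block or with 1 number left out. The cause was not tested. Genes with few promoter-proximal reads, most of all in number 1, limit what could be called there.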
